A study of Mus musculus with 24 samples.

Results

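Blood clotting starts when tissue factor (F3) on a cell surface binds factor VIIa (from F7) and activates factor X (F10), which makes thrombin. Factor XIII, whose A subunit is F13a1, then cross-links the fibrin clot, thrombomodulin (Thbd) and the endothelial protein C receptor (Procr) turn thrombin towards the anticoagulant protein C pathway, and urokinase (Plau) with its receptor (Plaur) makes plasmin, which dissolves fibrin. Platelet factor 4 (Pf4) is a heparin-binding chemokine best known from platelet granules. The liver makes most circulating clotting factors, while tissue macrophages are known to express several of these genes themselves. These 9 genes, of 21063 gene rows in the deposited count tables, were chosen on measured values, since they were picked by symbol with earlier results on these libraries known. The values known then included at least F10 in M1 against M2 and in Cold M2, and F13a1 in Cold M1. Which other measured values guided the choice is not recorded, so for these 9 genes the values, and whether the fit across all genes called them, are a description that supports nothing, and no p is given. Tests are given for other genes of haemostasis.

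The RNA came from sorted cells of epididymal fat, taken from male mice of the C57BL/6J strain that a high-fat diet had made obese, and filled 24 libraries of 8 groups with 3 libraries each. The Warm and Cold mice started the diet at 6 weeks of age, and mice of all 3 conditions weighed 38 to 42 g at 18 to 20 weeks. Warm mice were kept at thermoneutrality (29 to 30 °C). Cold mice were housed at 18 °C for 7 days, followed by a further 7 days at 4 °C, and were killed on day 14. A further set of thermoneutral mice received 10 mg/kg of bFKB1, an antibody that mimics the hormone FGF21 by activating its receptor complex, into the peritoneum, and their cells were taken after 8 days. M1 and M2 macrophages, as the labels name them, came from all 3 conditions, and adipose progenitors (AP) from Warm and Cold. Each Warm and Cold library pooled the sorted cells of 5 mice, and pooling is not stated for bFKB1. The study had no vehicle group, so Warm served as the control for bFKB1 too, and bFKB1 treatment cannot be told apart from the separate count table that holds those libraries. The sort gates are not in the labels. Levels are given in CPM, the counts of a gene scaled to a common library total.

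Libraries held 14374696 to 34600782 counts. The labels could be checked against marker genes. Summed over 11 macrophage markers, the level was 12321 to 20348 CPM in M1 libraries, 27269 to 30304 CPM in M2 libraries and 65.1 to 489 CPM in progenitors. Over 14 progenitor markers it was 67954 to 121839 CPM in progenitors. A progenitor share, the median ratio of these markers to their mean in the progenitors of the same condition (Warm for bFKB1), put the progenitor signal at 1.5%, 6.02% and 1.49% of the 3 Warm M1 libraries and at 35.5%, 16.9% and 11.5% of the Cold M1 libraries. Single markers ranged from 21.4% to 66.8%, from 8.52% to 39.1% and from 6.36% to 26.6% in those Cold M1 libraries, so every value below that rests on the median share is a rough estimate. It was 1.76% to 6.13% in bFKB1 M1 and 0.877% to 2.4% in all M2 libraries. Warm M1 replicate 2 also stood apart by endothelial markers, at 437 CPM against 101 and 120 CPM in the other Warm M1 libraries. In these sorted bulk samples fewer cells of a type and less RNA per cell cannot be told apart.

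F10 and F7 are neighbours on mouse chromosome 8, in the same orientation. In the RefSeq annotation of GRCm38, F7 lies at chr8:13025506-13035809 and F10 at chr8:13037308-13056676, with 1498 bases between them. F13a1 spans chr13:36867178-37050244 on the minus strand, and exons of the antisense gene Gm30489 overlap its exons. The kit named for Warm and Cold does not mark strand, so reads of that pair cannot be told apart and F13a1 counts are uncertain to that extent. F3 lies on chromosome 3, Pf4 on 5, Thbd and Procr on 2, Plaur on 7 and Plau on 14, and GENCODE annotates no gene that overlaps any of them. RefSeq promoter windows were at hand for 7 of the 9 genes. The 250 bases before the gene's start follow, 5′ to 3′ on the gene's strand, for the neighbours F7 (chr8:13025784-13026033, plus strand, before the start that GENCODE gives and inside the longer RefSeq span) and F10 (chr8:13037058-13037307, plus strand), which had like profiles over the groups, and for F13a1 (chr13:37050245-37050494, minus strand) and Pf4 (chr5:90772185-90772434, plus strand), which were both highest in M2. F3 (chr3:121723287-121723536, plus strand) is shown because progenitors had the highest level of it. The build is GRCm38.p6. Capitals mark matches, on either strand, to GAGGAAG, a form of the PU.1 site of myeloid genes, or to TGANTCA, the AP-1 site.
F7: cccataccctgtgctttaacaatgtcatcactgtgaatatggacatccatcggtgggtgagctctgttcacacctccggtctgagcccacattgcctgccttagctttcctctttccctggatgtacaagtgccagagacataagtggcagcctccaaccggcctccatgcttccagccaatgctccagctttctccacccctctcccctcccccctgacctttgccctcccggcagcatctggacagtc
F10: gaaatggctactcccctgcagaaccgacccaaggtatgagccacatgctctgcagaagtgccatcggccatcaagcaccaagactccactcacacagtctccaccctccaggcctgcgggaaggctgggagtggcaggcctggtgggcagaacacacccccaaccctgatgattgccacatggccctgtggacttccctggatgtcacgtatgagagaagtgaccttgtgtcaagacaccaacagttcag
F13a1: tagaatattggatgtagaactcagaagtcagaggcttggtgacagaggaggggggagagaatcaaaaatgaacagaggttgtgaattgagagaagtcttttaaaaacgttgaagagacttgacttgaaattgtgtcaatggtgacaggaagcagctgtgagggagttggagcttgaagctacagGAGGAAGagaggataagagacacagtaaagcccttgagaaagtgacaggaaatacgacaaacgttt
Pf4: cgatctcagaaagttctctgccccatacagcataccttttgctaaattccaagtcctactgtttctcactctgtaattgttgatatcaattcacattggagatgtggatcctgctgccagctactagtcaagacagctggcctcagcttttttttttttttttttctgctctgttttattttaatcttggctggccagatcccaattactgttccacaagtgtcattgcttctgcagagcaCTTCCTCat
F3: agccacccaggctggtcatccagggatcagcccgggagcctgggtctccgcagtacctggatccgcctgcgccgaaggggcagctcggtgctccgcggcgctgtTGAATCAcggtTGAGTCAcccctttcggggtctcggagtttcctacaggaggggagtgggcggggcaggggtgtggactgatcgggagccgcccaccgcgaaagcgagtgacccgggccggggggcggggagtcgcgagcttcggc
The F7 and F10 windows held neither word. The F13a1 and Pf4 windows shown each held 1 PU.1 match, on opposite strands, and the F3 window held 2 AP-1 matches, and it overlaps an exon of Gm43823, annotated on the other strand. The windows of Plaur (1 match to each word) and Procr (1 AP-1 match), and a second F13a1 window at chr13:37049214-37049463 (0 matches), which overlaps an F13a1 exon, are not shown. No matches overlapped each other. Of 32851 promoter windows of the same length, 10.6% held the PU.1 word and 6.75% the AP-1 word, and a match says only that these letters are present.

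**Figure D1:**
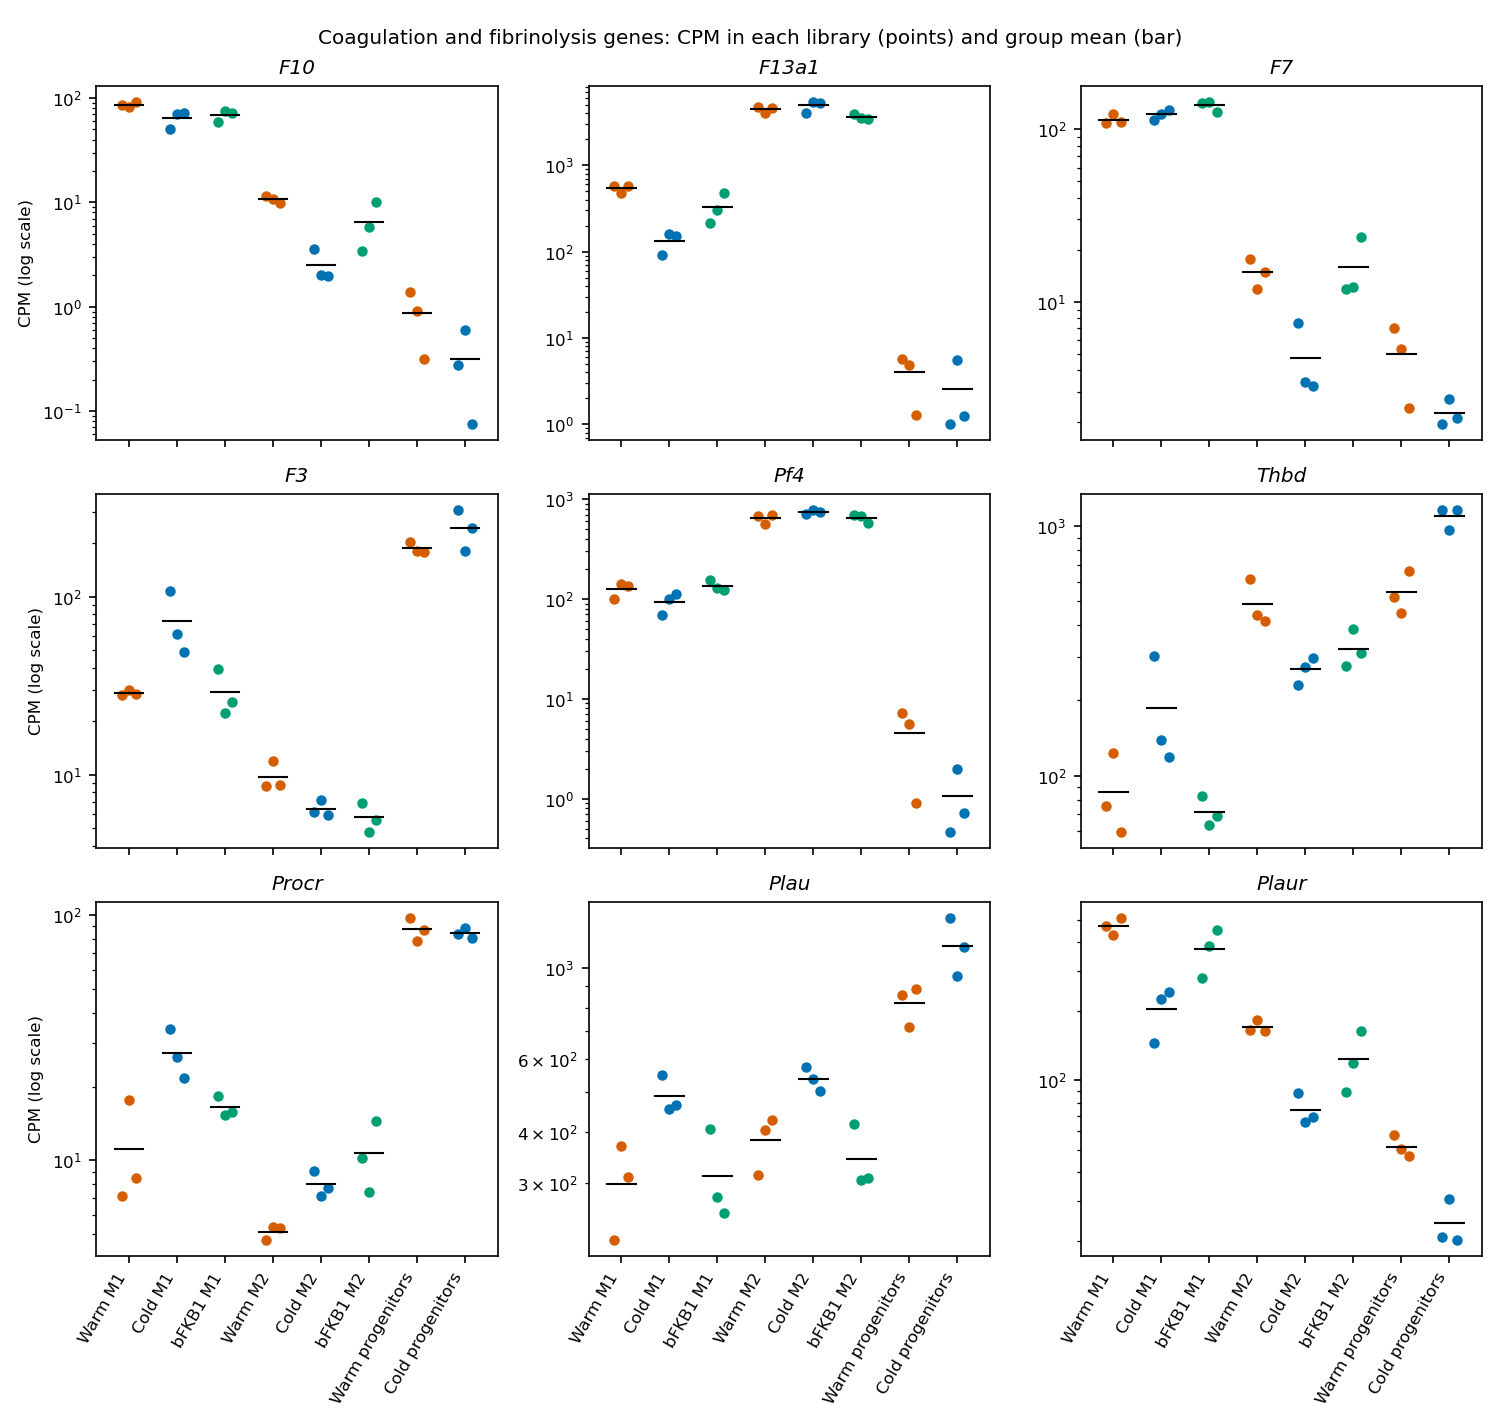
Level of each of the 9 genes in CPM (log axis) for the 8 groups, with 1 point per library and a bar at the group mean. F10, F7 and Plaur were highest in M1, F13a1 and Pf4 in M2, and F3, Thbd, Procr and Plau in progenitors.

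Differences between groups are log2 fold changes with standard errors from edgeR's quasi-likelihood fit, and a gene is called where its Benjamini-Hochberg adjusted p over all genes tested was under 0.05. All 9 genes passed the filter on low counts in every fit. Between M1 and M2 in Warm, 5 of the 9 were called higher in M1 and 3 lower, where 22.5% of 12981 genes were called higher and 22.8% lower. In Cold against Warm, 4 were called higher and 3 lower in M1 (background 22.4% and 21.5%). In M2 0 were called higher and 3 lower (4.41% and 5.69%). In progenitors 1 was called higher and 2 lower (18.4% and 16.6% of 12910 genes). The cold effect in M2 minus that in M1 was called positive for 1 and negative for 3 (1.11% and 1.2%). With bFKB1, 0 were called higher or lower in M1 (12.2% and 9.45% of 12734 genes), where 1 had an unadjusted p under 0.05 and DESeq2 called 1. In M2 0 were called higher and 1 lower with bFKB1 (5.25% and 3.01%). In Warm, progenitors were called higher than the mean of both macrophage groups for 4 and lower for 5 (43.2% and 40.2% of 13268 genes). Because earlier results guided the choice of genes, nothing is read from these shares. The comparisons that involve Warm M1 or Warm M2 share those control libraries.

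**Figure D2:**
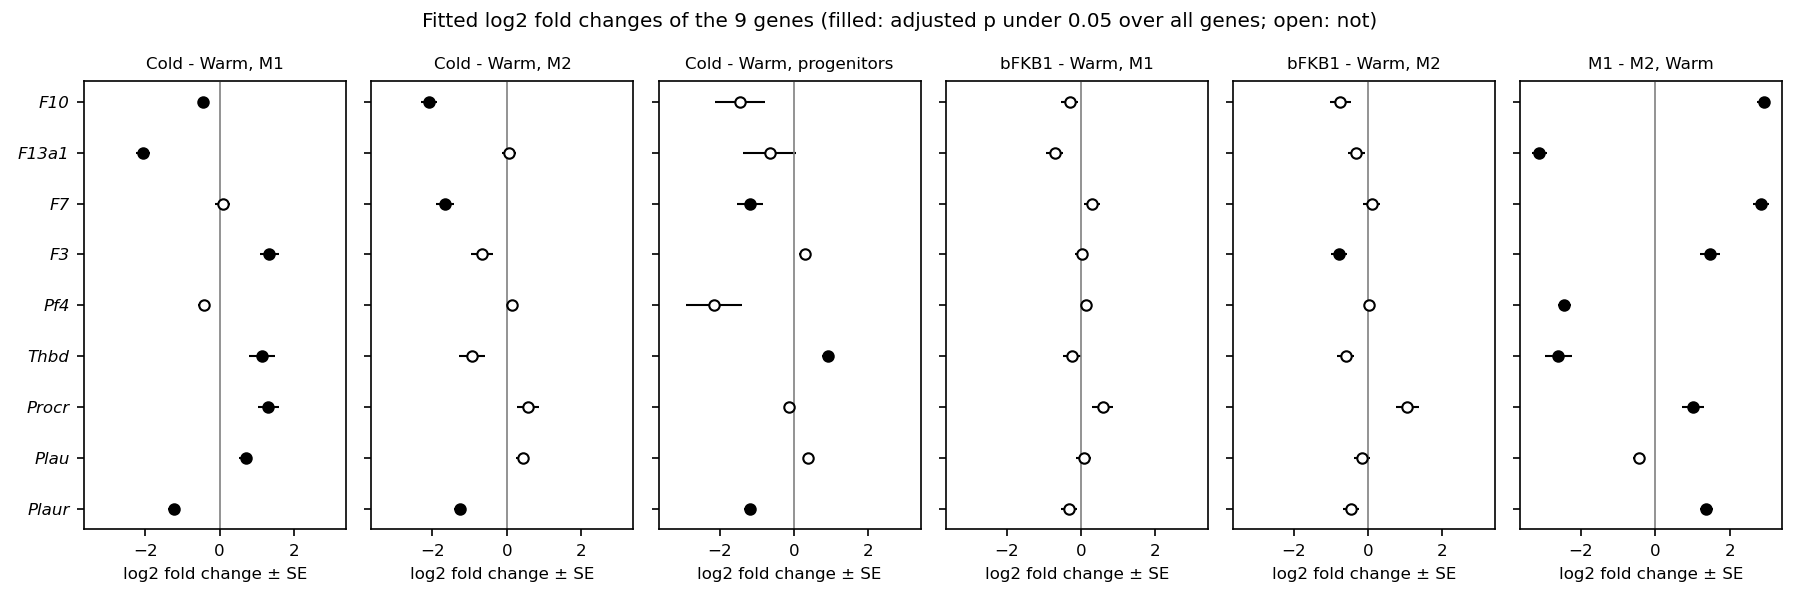
Log2 fold change with its standard error for the 9 genes in 6 comparisons. Filled points were called and open points were not. F10 and F7 lie to the left in Cold M2 (-2.10 and -1.66) and F13a1 in Cold M1 (-2.05), while all but 1 of the bFKB1 points are open.

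F10, which encodes the zymogen of the prothrombin-cleaving protease, was an M1 gene. Its level was 84.8, 81.4 and 91.4 CPM in the Warm M1 libraries and 11.5, 10.7 and 9.97 CPM in Warm M2. The groups did not overlap, and the log2 difference was 2.92 ± 0.17 (SE, n = 3 per group). In Warm progenitors it was 1.38, 0.909 and 0.318 CPM, and the level followed the order of the macrophage marker sums of those libraries (489, 405 and 89.8 CPM). In Cold progenitors it was 0.279, 0.595 and 0.0758 CPM, which did not follow that order throughout (65.1, 210 and 74.0 CPM). The progenitor groups overlapped, and their log2 difference of -1.45 was not called. It was called without Warm AP replicate 3 (-1.84) or with the replicate number as a block (-1.55). In Cold M2 the level was 3.55, 2.02 and 1.98 CPM, all below every Warm M2 library, a log2 difference of -2.10 ± 0.21. In Cold M1 it was 50.3, 70.7 and 71.2 CPM, all below Warm M1, but the difference was smaller, at -0.44 ± 0.15. Progenitor shares were larger in the Cold M1 libraries, and by arithmetic such shares lower a gene that progenitors lack by 0.18 to 0.63 on the log2 scale. Their part in the F10 difference was not tested beyond the subtraction that follows. With the progenitor counts subtracted the log2 difference in M1 was -0.12 and not called. The call was also lost without Warm M1 replicate 1 (-0.45), Warm M1 replicate 3 (-0.37) or Cold M1 replicate 1 (-0.32). The cold difference in M2 minus that in M1 was -1.66 ± 0.26. It was called, yet without any of Warm M1 replicate 1, the 3 Warm M2 libraries or Cold M2 replicates 2 and 3 it was not, at values of -1.72 to -1.52.

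With bFKB1, F10 in M1 was 59.1, 75 and 72.3 CPM, below all Warm M1 libraries, with a log2 difference of -0.31 ± 0.23 that was not called. In M2 it was 3.43, 5.77 and 10.1 CPM, overlapping Warm M2, and the difference of -0.75 ± 0.28 was not called. Without bFKB1 M2 replicate 3 it was -1.22 and called. Within each macrophage type, monocyte markers were also lower on average in Cold and bFKB1 than in Warm. The summed level of 5 monocyte markers (among them Ly6c2, Ccr2, Plac8 and Hp) was 550 to 642 CPM in Warm M1, 215 to 303 in Cold M1 and 242 to 404 in bFKB1 M1. In M2 it was 216 to 318 CPM in Warm, 39.1 to 59.3 in Cold and 57.5 to 139 in bFKB1. Ccr2, the receptor that brings monocytes into tissue, made up most of the sum, with means of 566 CPM in Warm M1 and 35.2 CPM in Cold M2, whereas Ly6c2 was at 0.132 to 2.31 CPM in all macrophage libraries. The part of monocytes in the F10 differences was not tested.

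**Figure D3:**
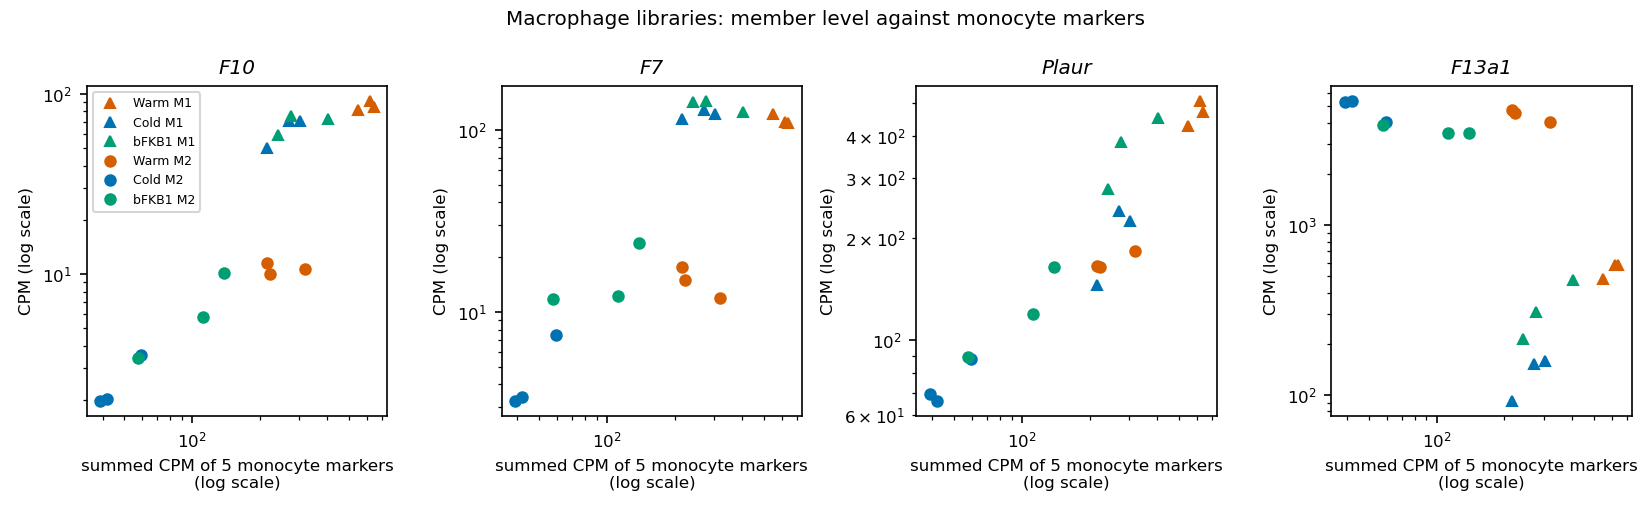
Level of F10, F7, Plaur and F13a1 in CPM against the summed CPM of 5 monocyte markers in the 18 macrophage libraries (both axes logarithmic; triangles M1, circles M2; colour gives the condition). Within M2 the Cold libraries had F10 levels of 1.98 to 3.55 CPM at marker sums of 39.1 to 59.3 CPM, bFKB1 M2 replicate 1 had 3.43 CPM at 57.5 CPM, and F13a1 was at 4078 CPM or more in Cold M2.

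F7, the protease partner of tissue factor, shared the M1 preference. It was 109, 122 and 109.9 CPM in Warm M1 and 17.6, 11.9 and 14.9 CPM in Warm M2, with no overlap and a log2 difference of 2.85 ± 0.22. In Cold M1 it was 114, 122 and 129 CPM, overlapping Warm M1, and the log2 difference of 0.09 ± 0.20 was not called. In Cold M2 it was 7.48, 3.41 and 3.24 CPM, all below Warm M2, a log2 difference of -1.66 ± 0.25. The ratio of group means between M1 and M2 was 7.67 in Warm and 25.8 in Cold. For F10 the same ratios were 8.02 and 25.5. The cold difference in M2 minus that in M1 was -1.74 ± 0.32, and its call held in 4 of the 12 fits that each left out 1 library, with values of -1.89 to -1.55 in the fits that lost it (without any Warm M2 library, Warm M1 replicate 1 or 3, Cold M1 replicate 2, or Cold M2 replicate 2 or 3). In bFKB1 M1 the level was 143, 144 and 126 CPM, above all Warm M1 libraries (0.29 ± 0.21, not called). In bFKB1 M2 it was 11.8, 12.2 and 23.8 CPM and overlapped Warm M2 (0.09 ± 0.24). Progenitors had little F7, at 7.05, 5.35 and 2.43 CPM in Warm and 1.96, 2.74 and 2.12 CPM in Cold. Within each condition these levels followed the order of the macrophage marker sums, 489, 405 and 89.8 CPM in Warm and 65.1, 210 and 74.0 CPM in Cold. The log2 difference of Cold from Warm progenitors, -1.18 ± 0.36, was called although the groups overlapped. It was not called without Warm AP replicate 1 (-0.85) or 2 (-1.12) or Cold AP replicate 1 (-1.07) or 3 (-1.15). The part of macrophage signal in this difference was not tested.

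F3, the cell-surface starter of clotting, was a progenitor gene. It was 202, 179.8 and 179 CPM in Warm progenitors, 27.9, 29.8 and 28.6 CPM in Warm M1 and 8.65, 12 and 8.72 CPM in Warm M2. None of the 3 groups overlapped. The log2 difference was 3.79 ± 0.09 between progenitors and macrophages and 1.47 ± 0.26 between M1 and M2. In Cold progenitors the level was 307, 181 and 245 CPM, overlapping Warm (0.30 ± 0.16, not called; without Cold AP replicate 2 it was 0.46 and called). In Cold M1 it was 108, 61.6 and 49.1 CPM, all above Warm M1, a log2 difference of 1.34 ± 0.25. The order of the Cold M1 libraries was that of their progenitor shares, and those shares would carry 57.3% to 80.6% of the F3 measured there. After subtraction of progenitor counts the difference was 0.17 and not called. In Cold M2 the level was 6.20, 7.23 and 5.95 CPM, below all Warm M2 libraries (-0.67 ± 0.29, not called). The progenitor share would carry 53.8% to 80.9% of F3 in Cold M2 and 36.4% to 39.4% in Warm M2. With progenitor counts subtracted the difference in M2 was -1.69 and called, on the small part that remained. In bFKB1 M2 the level was 6.90, 4.79 and 5.59 CPM, also below Warm M2. The called difference of -0.78 ± 0.21 there was lost whichever library was left out (-0.91 to -0.62). In bFKB1 M1 it was 39.4, 22.3 and 25.6 CPM, on both sides of Warm M1 (0.02 ± 0.18). The cold difference in M2 minus that in M1 was -2.00 ± 0.38. It was called in 4 of the 12 fits that left out 1 library, and in the others (without any Warm M2 or Cold M2 library, or Warm M1 replicate 1 or 3) it was -2.10 to -1.84.

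F13a1, the fibrin cross-linking transglutaminase and a known gene of tissue-resident macrophages, was the most M2-biased of the 9 genes by fold. It was 4765, 4048 and 4603 CPM in Warm M2 and 579, 482 and 579.6 CPM in Warm M1, with no overlap, and the log2 difference of M1 from M2 was -3.12 ± 0.20. In Cold M1 the level was 91.9, 159 and 152 CPM. Every Cold M1 library was below every Warm M1 library, by a log2 difference of -2.05 ± 0.19. With progenitor counts subtracted it was -1.74, and it was -2.18 to -1.86 when 1 library was left out. In Cold M2 the level was 4078, 5387 and 5307 CPM, overlapping Warm M2 (0.07 ± 0.19). In M2 minus M1 the cold difference was 2.12 ± 0.27, and it was 1.93 to 2.25 when 1 library was left out. The group means in Cold were 134 CPM in M1 and 4924 CPM in M2.

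With bFKB1, F13a1 in M1 was 212, 306 and 476 CPM, below all Warm M1 libraries. The log2 difference was -0.71 ± 0.23 and not called. It was called without Warm M1 replicate 2 (-0.81) or without bFKB1 M1 replicate 3 (-1.07). DESeq2 called it too (-0.71), as did edgeR with library totals without TMM (-0.72), progenitor counts subtracted (-0.69) or the replicate number as a block (-0.74). In bFKB1 M2 it was 3872, 3497 and 3467 CPM, below all Warm M2 libraries (-0.32 ± 0.23, not called). The F13a1 levels followed the order of the monocyte marker sums in bFKB1 M1 (242, 276 and 404 CPM) and Cold M1 (215, 303 and 271 CPM). They did not in Warm M1 (642, 550 and 618 CPM), and in bFKB1 M2 the order was reversed (57.5, 112 and 139 CPM). The part of monocytes in the F13a1 differences was not tested. Progenitors held 5.78, 4.91 and 1.27 CPM in Warm and 1.02, 5.50 and 1.25 CPM in Cold. The highest Cold value came from the library with the highest macrophage marker sum among Cold progenitors, 210 CPM against 65.1 and 74.0 CPM. Mast cell markers, summed over 5 genes, were higher in Cold M1 (12.9 to 22.8 CPM) and Cold M2 (10.3 to 18.6 CPM) than in Warm macrophages (0.44 to 3.13 CPM). With bFKB1 they were 1.66 to 15.8 CPM in M1 and 4.33 to 17.1 CPM in M2, and their part in these differences was not tested.

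Pf4, a platelet and macrophage chemokine, followed the M2 preference of F13a1. It was 673, 569 and 692 CPM in Warm M2 and 99.1, 141 and 136 CPM in Warm M1, with no overlap and a log2 difference of M1 from M2 of -2.45 ± 0.17. Platelet markers other than Pf4 were low. The sum of 11 of them, among them Itga2b, Gp1ba and Ppbp, was 5.34 to 12 CPM in all macrophage libraries, and Gp6 was at 0 in every library of 5 of the 6 macrophage groups. In Cold M1 the Pf4 level was 69.9, 99.6 and 113 CPM and overlapped Warm M1 (-0.43 ± 0.16, not called). That difference was called without Warm M1 replicate 1 (-0.57) or Cold M1 replicate 3 (-0.58), and it was -0.12 and not called with progenitor counts subtracted. In Cold M2 it was 709, 778 and 746 CPM, above all Warm M2 libraries by a small amount (0.14 ± 0.16, not called). With bFKB1 it was 156, 129 and 124 CPM in M1 (0.13 ± 0.14) and 703, 679 and 580.5 CPM in M2 (0.01 ± 0.13), both overlapping Warm. Progenitors held 7.15, 5.65 and 0.896 CPM in Warm and 0.466, 1.96 and 0.72 CPM in Cold, again in the order of the macrophage marker sums. Their log2 difference of -2.15 ± 0.75 was not called, but was without Warm AP replicate 3 (-2.63) or Cold AP replicate 2 (-3.03).

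Thbd, the thrombin receptor that switches thrombin to activating protein C, was high in M2 and in progenitors. It was 612, 439 and 415 CPM in Warm M2, 75.5, 123 and 59.5 CPM in Warm M1 and 519.8, 449.7 and 662 CPM in Warm progenitors. M1 lay below M2 without overlap (-2.61 ± 0.37), and M2 overlapped the progenitors. In Cold progenitors the level was 1161, 969 and 1159 CPM, above all Warm progenitors, a log2 difference of 0.93 ± 0.16. That difference was 0.87 and not called without Cold AP replicate 3. In Cold M2 it was 229.9, 273 and 297 CPM, below all Warm M2 libraries (-0.94 ± 0.35, not called). With progenitor counts subtracted that difference was -1.02 and called. In Cold M1 the level was 301, 139 and 119 CPM, and the lowest Cold M1 library lay below the highest of Warm M1. The called log2 difference of 1.13 ± 0.35 was not called without Warm M1 replicate 1 (1.06) or 3 (0.94) or Cold M1 replicate 1 (0.56). The progenitor share alone would carry 106% to 133% of the Thbd measured in the Cold M1 libraries. The cold difference in M2 minus that in M1 was -2.07 ± 0.49 and not called. It was called without Warm M1 replicate 2 (-2.41), Cold M1 replicate 1 (-1.50) or Cold M1 replicate 3 (-2.32). DESeq2 (-2.08) and edgeR without the filter on low counts (-2.07) called it too. In bFKB1 M2 the level was 274, 387 and 309 CPM, below all Warm M2 libraries (-0.61 ± 0.23, not called), and in bFKB1 M1 it was 82.6, 63.2 and 68.7 CPM (-0.25 ± 0.24).

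Procr, the receptor that presents protein C to that complex, was a progenitor gene with a low macrophage level. It was 97.3, 78.5 and 87.2 CPM in Warm progenitors and 83.7, 88.6 and 80.8 CPM in Cold progenitors, groups that overlapped (-0.13 ± 0.10). In Warm M1 it was 7.18, 17.7 and 8.48 CPM and in Warm M2 4.74, 5.33 and 5.27 CPM. The highest Warm M1 value came from replicate 2, the library that stands apart. The log2 difference of M1 from M2 was 1.02 ± 0.29, and it was not called without that library (0.53) or without Warm M2 replicate 1 (1.00). In Cold M1 the level was 34.4, 26.3 and 21.7 CPM, above all Warm M1 libraries (1.31 ± 0.28) and in the order of the progenitor shares, which would carry 44.7% to 87.0% of it. After subtraction of progenitor counts the difference was 0.41 and not called. In Cold M2 it was 9.02, 7.17 and 7.73 CPM, above all Warm M2 libraries (0.58 ± 0.30, not called). The cold difference in M2 minus that in M1 was -0.73 ± 0.41, and without Warm M1 replicate 2 it was -1.22 and called. With bFKB1 it was 18.3, 15.3 and 15.8 CPM in M1, overlapping Warm M1 only through replicate 2 (0.58 ± 0.29, not called; 1.06 and called without that library). In bFKB1 M2 it was 10.2, 7.44 and 14.4 CPM, above all Warm M2 libraries (1.05 ± 0.31, not called in the main fit). That difference was called by DESeq2 (1.05) and by edgeR with progenitor counts subtracted (1.49).

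**Figure D4:**
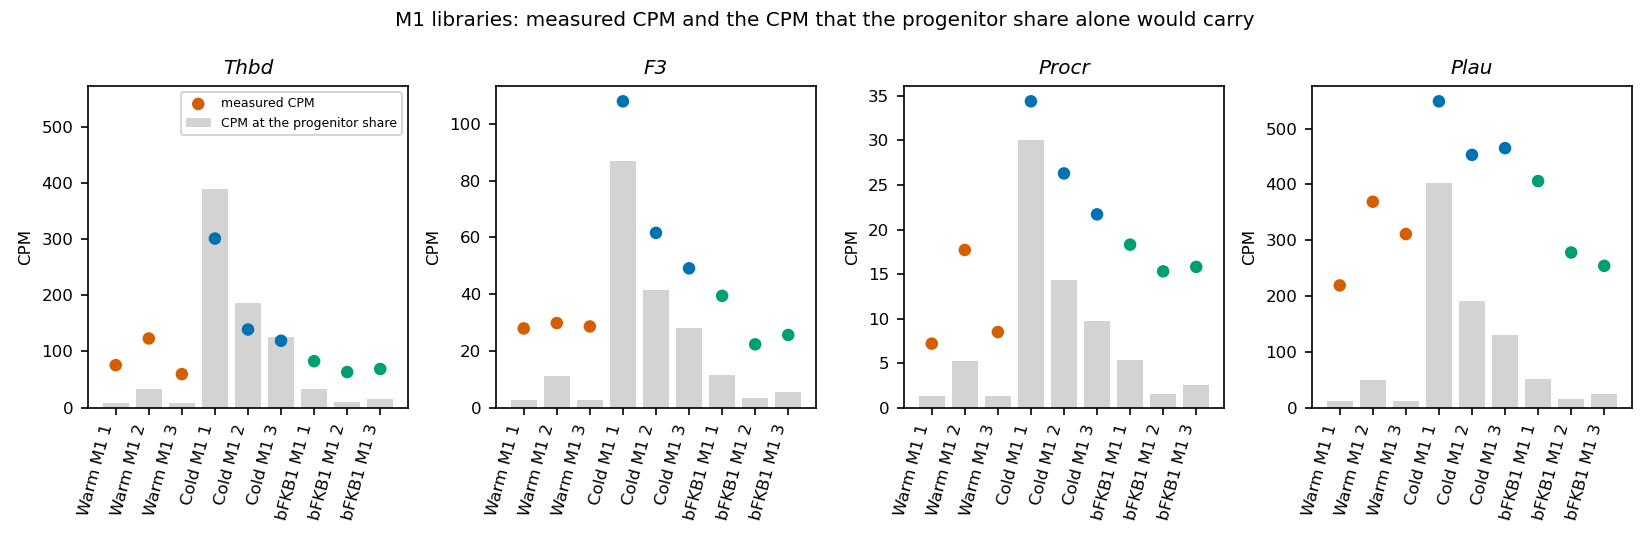
Measured CPM (points, coloured by condition) and the CPM that the progenitor share alone would carry (grey bars) for Thbd, F3, Procr and Plau in the 9 M1 libraries. In the Cold M1 libraries the bars reach 106% to 133% of the measured Thbd, 57.3% to 80.6% of F3, 44.7% to 87.0% of Procr and 28.0% to 73.2% of Plau.

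Plau, the plasminogen activator urokinase, varied least among the groups by the ratio of its highest to its lowest group mean. It was 857, 719 and 886 CPM in Warm progenitors, 219, 369 and 311 CPM in Warm M1 and 314, 403 and 428 CPM in Warm M2. M1 and M2 overlapped (-0.44 ± 0.17, not called); with M1 and M2 libraries of the same number and condition as a pair (replicate block within condition) it was -0.46 and called, as it was without Warm M1 replicate 2 (-0.61) or Warm M2 replicate 1 (-0.54). In all 3 cell types every Cold library was above every Warm library. Cold M1 had 549, 453 and 465 CPM, Cold M2 573, 538 and 501 CPM and Cold progenitors 1317, 953 and 1121 CPM. The log2 differences were 0.70 ± 0.17 in M1 (called), 0.43 ± 0.17 in M2 and 0.38 ± 0.13 in progenitors (both not called). The value in progenitors was called without Warm AP replicate 3 (0.46) or Cold AP replicate 2 (0.47). DESeq2 (0.38) called it too, as did edgeR with library totals without TMM (0.46) or the replicate number as a block (0.38). The progenitor share would carry 28.0% to 73.2% of Plau in Cold M1, and with its counts subtracted the difference there was 0.12 and not called. With bFKB1 the level was 406, 278 and 254 CPM in M1 (0.07 ± 0.21) and 418, 306 and 309 CPM in M2 (-0.16 ± 0.21), both overlapping Warm.

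Plaur, the receptor that holds urokinase at the cell surface, was lower in every Cold library than in any Warm library of the same cell type, in all 3 cell types. It was 469, 428 and 507 CPM in Warm M1 and 145, 225 and 241 CPM in Cold M1, a log2 difference of -1.22 ± 0.16. In M2 it was 165, 183 and 164 CPM in Warm and 88.0, 66.1 and 69.2 CPM in Cold (-1.26 ± 0.17). In progenitors it was 57.8, 50.2 and 46.8 CPM in Warm and 20.9, 30.5 and 20.3 CPM in Cold (-1.18 ± 0.17). None of these pairs of groups overlapped, and all 3 calls held whichever library was left out. Between M2 and M1 the cold difference differed by -0.04 ± 0.23. With progenitor counts subtracted the difference in M1 was -0.95 and still called. M1 was above M2 in Warm by 1.37 ± 0.17. With bFKB1 the level was 278, 384 and 452 CPM in M1 (-0.32 ± 0.21) and 89.4, 119 and 164 CPM in M2 (-0.47 ± 0.22), neither called and both overlapping Warm. In both bFKB1 groups the order of the libraries was that of their monocyte marker sums, as for F10 in M2, and the part of monocytes in the Plaur differences was not tested.

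The rest of the haemostasis system was described from a list of 43 further genes, of which 25 passed the filter on low counts in the macrophage fits, 23 in progenitors under Cold and 24 in the progenitor and macrophage fit. The 18 that did not pass in Cold against Warm M1 included prothrombin (F2), the fibrinogen chains (Fga, Fgb and Fgg), antithrombin (Serpinc1), protein C (Proc) and plasminogen (Plg), genes known for their expression in liver. Between M1 and M2 in Warm, 7 of 25 were called higher in M1 and 7 lower, beside 22.5% and 22.8% of all genes, with a median log2 difference of 0.31 against 0.04 over all genes. Higher in M1 were F2rl2, the thrombin receptor PAR3 (3.48, adjusted p = 1.36e-05), Serpinb2, the plasminogen activator inhibitor PAI-2 (1.63, adjusted p = 6.99e-05), the plasminogen docking protein Anxa2 (1.00, adjusted p = 1.37e-05) and von Willebrand factor, Vwf (0.99, adjusted p = 0.00525). Vwf was 36.3, 63.1 and 31.6 CPM in Warm M1 and 20.0, 23.8 and 17.8 CPM in Warm M2. Summed endothelial markers were 120, 437 and 101 CPM in those M1 libraries and 68.8, 97.2 and 75.6 CPM in those M2 libraries. Their part in the Vwf difference was not tested. Lower in M1 were F8 (-1.37, adjusted p = 0.00342), the protein C cofactor Pros1 (-1.29, adjusted p = 1.39e-06), the tissue factor inhibitor Tfpi (-1.01, adjusted p = 0.000204) and the vitamin K-dependent carboxylase Ggcx (-0.75, adjusted p = 0.0154), the last not called without Warm M1 replicate 3 or Warm M2 replicate 3. Pros1 had group means of 211 ± 11 CPM in M1 and 484 ± 11.6 CPM in M2 (SD, n = 3). Of the 5 anticoagulants tested, 2 were lower in M1 and 0 higher.

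In Cold against Warm M1, 11 of 25 rose and 4 fell, beside 22.4% and 21.5% of all genes (median 0.50 against -0.03 over all genes). By group, 4 of 9 clotting factors and their processing genes, 1 of 3 protease-activated receptors, 3 of 5 anticoagulants and 3 of 8 fibrinolysis genes rose. The 4 of the first group were all processing genes: Ggcx, Vkorc1, Lman1 and Mcfd2. With progenitor counts subtracted Vkorc1 was at 0.07 (adjusted p = 0.729). Ggcx (0.60, adjusted p = 0.0177), Lman1 (0.24, adjusted p = 0.00519) and Mcfd2 (0.22, adjusted p = 0.0335) stayed called. F9, not called before, was then called at 1.25 (adjusted p = 0.0358). The largest increases were in Serpine2, a thrombin inhibitor (2.21 ± 0.54, adjusted p = 0.00755), Plat, tissue plasminogen activator (2.21 ± 0.43, adjusted p = 0.00253), F2r, the thrombin receptor PAR1 (2.05 ± 0.42, adjusted p = 0.00335) and Tfpi2 (1.74 ± 0.54, adjusted p = 0.023). These are also the 4 with the largest excess of progenitors over macrophages in Warm, at 5.84, 5.14, 4.85 and 5.69 in the same order (adjusted p = 1.29e-06, 1.77e-07, 4.37e-07 and 1.3e-07). With progenitor counts subtracted F2r was at 1.57 (adjusted p = 0.0102), Plat was at -5.88, a value set by counts that the subtraction took to near 0, and Serpine2 and Tfpi2 no longer passed the filter. Serpine2 was 97.2, 52.3 and 33.1 CPM in Cold M1 and 352 CPM on average in Cold progenitors. The call of Tfpi2 was lost even in the unsubtracted data without Warm M1 replicate 1 or 3 or Cold M1 replicate 1. Tfpi rose by 1.17 (adjusted p = 0.000363), and by 0.73 with progenitor counts subtracted (adjusted p = 0.00108). Lrp1, the scavenger receptor that clears proteases and their inhibitors, was 2698, 2560.3 and 2560.0 CPM in Warm M1 and 7079.9, 4733 and 4390.5 CPM in Cold M1 (1.04, adjusted p = 0.00131, and 1.11 with the subtraction, adjusted p = 0.00149). The Cold libraries did not overlap the Warm ones.

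The genes that fell in Cold M1 were Serpinb2 (-1.94, adjusted p = 0.000195), F2rl2 (-1.51, adjusted p = 0.00277), S100a10, the partner of Anxa2 in binding plasminogen (-0.84, adjusted p = 0.000729), and Anxa2 (-0.26, adjusted p = 0.0493). The first 3 also fell with the progenitor counts subtracted, at -1.65, -1.20 and -1.02 (adjusted p = 9.59e-05, 0.00407 and 0.00226), while Anxa2 was at -0.04 (adjusted p = 0.731) and lost its call without any Warm M1 library or Cold M1 replicate 1 or 2. The same 4 genes were the 4 of 25 that fell in Cold M2, beside 5.69% of all genes, at -2.68 for F2rl2 (adjusted p = 0.0111), -1.92 for Serpinb2 (adjusted p = 0.000962), -0.75 for S100a10 (adjusted p = 0.00421) and -0.57 for Anxa2 (adjusted p = 0.0053). F2rl2 was near the floor in M2, at 1.06 CPM on average in Warm and 0.169 CPM in Cold, where libraries held 2 to 4 counts of it. Serpinb2 was 16.4, 15.2 and 18.2 CPM in Warm M1 against 3.29, 5.18 and 4.71 CPM in Cold M1. In M2 it was 5.43, 5.44 and 4.30 CPM in Warm against 1.62, 1.67 and 0.859 CPM in Cold. Both pairs were free of overlap. Plgrkt, a plasminogen receptor, was the 1 gene of the 25 that rose in Cold M2 (0.28, adjusted p = 0.0434), a call lost whichever library was left out. The cold effect was more negative in M2 than in M1 for 2 of 25 genes, among them Lrp1 (-1.07 ± 0.24, adjusted p = 0.0483), and DESeq2 called 9. The Lrp1 call was lost, at -1.17 to -1.0, without any Warm M2 or Cold M2 library, Warm M1 replicate 1 or 3 or Cold M1 replicate 2.

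In Cold against Warm progenitors, 13 of 23 fell and 0 rose, beside 16.6% and 18.4% of all genes (median -0.43 against 0.00 over all genes). Serpinb2 fell by the largest amount (-4.03 ± 0.74, adjusted p = 0.0108), from 9.42, 28.5 and 9.31 CPM to 0.0931, 1.84 and 1.06 CPM. F2rl1, the receptor PAR2, fell by 1.95 on the log2 scale (adjusted p = 0.00285) and Anxa2 fell by 0.89 (adjusted p = 0.006). Over the list 5 were called without Warm AP replicate 2 and 4 without Cold AP replicate 3, and the call of Serpinb2 was among those lost without the latter.

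With bFKB1, 3 of 25 rose and 1 fell in M1, beside 12.2% and 9.45% of all genes, and 1 rose and 1 fell in M2, beside 5.25% and 3.01%. As shares of the list, these counts are near or below the shares over all genes. The 2 genes of M2 were called in the same direction in M1. Lrp1 was higher by 0.36 in M1 (adjusted p = 0.0118) and by 0.41 in M2 (adjusted p = 0.0149), and S100a10 was lower by a log2 difference of -0.47 and -0.56 (adjusted p = 0.0152 in both). In M2 S100a10 was 511, 397 and 439 CPM in Warm and 299.5, 330.2 and 289 CPM with bFKB1, without overlap. Its call was lost without Warm M1 replicate 1 or 3 or bFKB1 M1 replicate 1 in M1, and without Warm M2 replicate 1 or bFKB1 M2 replicate 1 or 3 in M2, and that of Lrp1 in M2 was lost without Warm M2 replicate 1. F9 (1.14, adjusted p = 0.0325) and Vkorc1 (0.34, adjusted p = 0.037) rose in M1, and both calls were lost without Warm M1 replicate 1 or 3 or bFKB1 M1 replicate 1 or 2. In the comparison of Warm progenitors with macrophages, 18 of 24 were higher in progenitors and 5 lower, beside 43.2% and 40.2% of all genes, and among genes with a mean of at least 1 CPM in a group the lower ones were led by F2rl2 (-5.22, adjusted p = 1.83e-05), Vwf (-1.99, adjusted p = 0.000732) and F5 (-1.83, adjusted p = 0.000112).

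**Figure D5:**
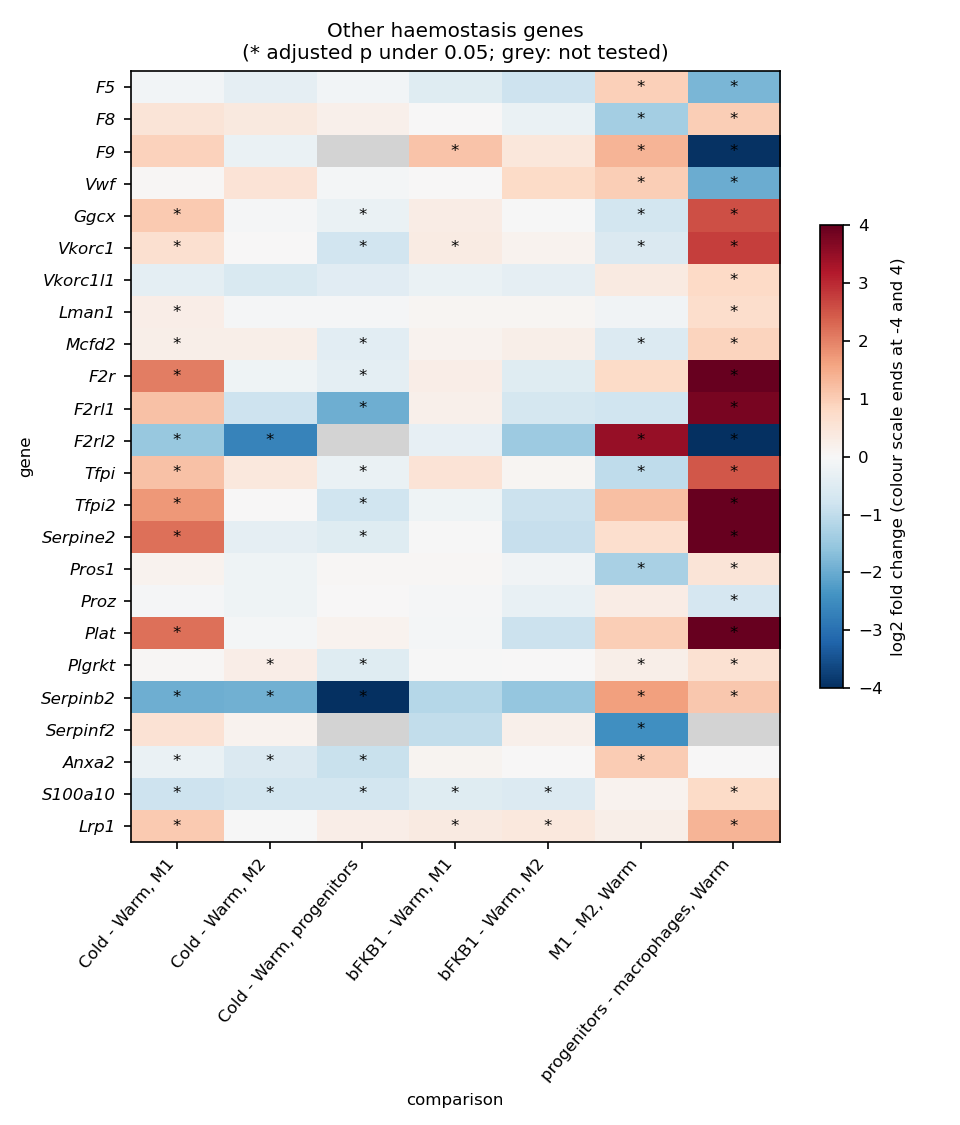
Log2 fold change (colour) of further haemostasis genes that passed the filter, in 7 comparisons, with an asterisk where the adjusted p was under 0.05 and grey where the gene was not tested. S100a10 was lower in every Cold and bFKB1 comparison, and Serpinb2 was lower in Cold in M1, M2 and progenitors.

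Of the 9 genes, 7 fell into groups with like profiles over the 8 sample groups. Pearson's r over the 8 group means of log2(CPM + 1) was 0.99 for F10 with F7, 0.95 for F10 with Plaur and 0.92 for F7 with Plaur. It was 0.99 for F13a1 with Pf4 and 0.94 for F3 with Procr. Thbd and Plau stood at 0.80 with each other, and Plau at 0.81 with Procr. These values describe groups that share cell type, and in Cold M1 the progenitor signal, and no p is given for them. Among 10853 genes with at least 5 CPM in a group, the profile of F10 was most like those of Napsa (0.999) and Sirpb1a (0.996), and that of F7 like Pparg (0.996) and H2-M2 (0.990). The nearest to F13a1 were Serpinb8 (0.999) and Kifc3 (0.998), and to Pf4 Clec10a (0.998) and Ms4a6b (0.997). For Plaur they were Areg (0.999) and Gtf3c6 (0.997), for F3 Gpr124 (0.996) and Efcc1 (0.995), and for Procr Prdx6 and Smim14 (both 0.995). Thbd had the least close matches, B4galt1 (0.976) and Klf4 (0.974), and Plau was nearest to Klf15 (0.996) and Armc9 (0.991).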

How the data were processed

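RNA was sequenced from 24 libraries of sorted fat cells. Per the submitters' processing notes, the authors used CASAVA 1.8, GSNAP and, for Warm and Cold, SAMtools with GRCm38; which tool counted the reads, and on which annotation, is not given in the sources used here. The authors deposited raw counts per gene in 2 tables, 1 for Warm and Cold and 1 for bFKB1. Of 21090 rows, 27 with date-like names that name no gene were left out (0.148% to 0.192% of a library's counts), and 0 columns were unused. Totals of 14374696 to 34600782 counts set the precision. The labels' titles gave the groups and replicate numbers, and for bFKB1 these numbers differ from those in another label.

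The 9 genes and all lists were chosen with earlier results of these data known. Levels are CPM of the library total, as mean ± SD or single libraries. Differences were fitted on the counts with edgeR 4.0.16 (R 4.3.3, filterByExpr, TMM, quasi-likelihood test, 1 mean per group) with Benjamini-Hochberg adjustment over all genes tested at 0.05, checked on simulated data. The fits covered Warm and Cold macrophages, Warm and bFKB1 macrophages, progenitors, and the Warm groups. Nothing says that libraries of a group were made from separate experiments beyond their pools of mice, so p-values measure the spread between these libraries. Of the further haemostasis genes, up to 4 called higher and 4 called lower per comparison were named. They were those with the largest fold changes among genes with a mean of at least 1 CPM in a group compared. Tfpi, Lrp1, F9, Ggcx, Vkorc1, Lman1 and Mcfd2 in Cold M1 and S100a10 in M2 by library were added after their values were seen. Some genes that the lists hold are not reported here by name, and the counts over lists include them. The 8 group means of log2(CPM + 1) gave the likeness of profiles, among genes with at least 5 CPM in a group, predicted genes left out. The expected progenitor counts (share times the progenitor mean) were subtracted in one alternative. The others were DESeq2 1.42.0, library totals without TMM, no filter, the replicate number as a block and leaving out each library. Same-numbered M1 and M2 libraries deviated together in Warm (r = 0.13, 0.23 and 0.13 over 13774 genes) and with bFKB1 (0.31, 0.06 and 0.26). In Cold they did not (-0.27, -0.01 and -0.06). The main fits used no pairs. By this hint from the data, a further alternative took the number within each condition as a block, for M1 against M2 in Warm and the difference of cold effects. Tables were handled with Python 3.11.15 and pandas 2.3.3, and drawn with matplotlib 3.10.9. Promoters came from RefSeq (GRCm38.p6).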

Additional observations from a re-analysis of the deposited data

Results flagged for a closer look

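The difference between the cold effect in M2 and that in M1 passed the adjusted threshold of the fit for 5 of the genes described, and that is why they are listed. It was -1.66 for F10, 2.12 for F13a1, -1.74 for F7 and -2.00 for F3, values that are a description only, because earlier results guided the choice of these genes. With progenitor counts subtracted they were -1.98, 1.82, -2.07 and -1.86. For F3 the subtraction moved the cold difference in M1 from 1.34 to 0.17 and that in M2 from -0.67 to -1.69. Among the further haemostasis genes the difference between the cold effects was -1.07 for Lrp1 (adjusted p = 0.0483 by the quasi-likelihood test of edgeR). The Cold M1 libraries, which enter all 5, carried progenitor shares of 35.5%, 16.9% and 11.5%. With progenitor counts subtracted the Lrp1 difference was -1.15 (adjusted p = 0.0332). Without any Warm M2 or Cold M2 library, Warm M1 replicate 1 or 3 or Cold M1 replicate 2, it was -1.17 to -1.0 and not called. Thbd moved in opposite directions in Cold: all M2 libraries lay below Warm, with a ratio of group means of 0.546, and all progenitor libraries lay above, with a ratio of 2.02. That difference was not tested.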

How the results depend on the processing

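Of 35 calls over the 9 genes and 8 comparisons, 26 were kept whichever library was left out and 23 under every alternative run. Of the fold changes under all alternatives, 767 kept direction and side of the threshold, 53 lost the call, 38 gained it and 24 changed sign. Leaving out 1 library gave these ranges of calls for the 9 genes and for the further haemostasis genes: 5 to 8 and 12 to 16 for cold in M1, 3 to 3 and 4 to 4 for cold in M2, 1 to 6 and 0 to 9 for the difference of cold effects, 8 to 8 and 11 to 13 for M1 against M2, 1 to 6 and 4 to 12 for cold in progenitors, 0 to 2 and 1 to 8 for bFKB1 in M1, 0 to 1 and 0 to 2 for bFKB1 in M2, and 9 to 9 and 23 to 24 for progenitors against macrophages. With DESeq2 the calls were 9 further genes for the difference of cold effects, 1 of the 9 genes for bFKB1 in M1, and 2 of the 9 and 5 further genes for bFKB1 in M2. Library totals gave 1 of the 9 for bFKB1 in M1 and 0 for bFKB1 in M2, and no filter gave 0 for bFKB1 in M2. Subtracting progenitor counts gave 3 of the 9 for cold in M1, 5 for cold in M2, 1 for bFKB1 in M1 and 4 further genes for the difference. These counts include Thbd for cold in M1 (-13.37) and Plat for the difference (4.99), values set by counts that the subtraction took to near 0. With the replicate block, calls were 2 of the 9 and 0 further genes for the difference, 1 for bFKB1 in M1, 0 for bFKB1 in M2 and 6 for cold in progenitors, and the block within condition gave 1 further gene for the difference. Same-numbered M1 and M2 libraries deviated together in Warm and with bFKB1 but not in Cold, and the main fits used no pairs. With the replicate block the log2 differences were -0.44 for F10 in Cold M1, -1.77 and -1.96 for F7 and F3 in the difference, and -0.79 for F3 with bFKB1 in M2, none of them called.

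Sign changes were near 0 in most cases. For Plaur the difference of cold effects was 0.00 with library totals, and 0.02, 0.01, 0.03, 0.03, 0.09 and 0.01 without Warm M1 replicate 2, Warm M2 replicate 2, Cold M1 replicate 2, Cold M2 replicate 2, Cold M1 replicate 3 and Cold M2 replicate 3. F13a1 in Cold M2 was 0.00 without Warm M2 replicate 2. With progenitor counts subtracted Thbd was -13.37 in Cold M1 and 12.35 in the difference, where the subtraction took counts to 0 and the values are no sizes, Procr and Plau were 0.45 and 0.31 in the difference, F3 was -0.02 with bFKB1 in M1 and Pf4 -0.02 with bFKB1 in M2. With bFKB1 in M1, Pf4 was -0.01 and Plau -0.11 without Warm M1 replicate 1, Thbd 0.07 without Warm M1 replicate 2, and F3 -0.23 and Plau -0.14 without bFKB1 M1 replicate 1. With bFKB1 in M2, F7 was -0.05 and Pf4 -0.08 without Warm M2 replicate 2, Pf4 -0.02 and -0.03 without bFKB1 M2 replicates 2 and 1, and F7 -0.31 without bFKB1 M2 replicate 3. Leaving out 1 library gave -0.21 to 0.09 for Plaur in the difference and 0.00 to 0.19 for F13a1 in Cold M2. With bFKB1 it gave -0.23 to 0.18 for F3, -0.01 to 0.21 for Pf4, -0.45 to 0.07 for Thbd and -0.14 to 0.23 for Plau in M1, and -0.31 to 0.28 for F7 and -0.08 to 0.09 for Pf4 in M2. The cause was not tested.

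Over all genes, the difference of cold effects had 300 calls, 1474 with DESeq2, 483 with library totals, 820 after subtraction and 73 with the replicate block. Leaving out 1 library gave 23 to 1982 there, 531 to 937 for cold in M2 (1312 in all libraries), 1449 to 3809 for bFKB1 in M1 (2755), 394 to 553 for bFKB1 in M2 (1052) and 489 to 6437 for cold in progenitors (4512). With library totals the calls were higher for 1033 of 1562 in Cold M2 (573 of 1312 with TMM), 310 of 483 in the difference (144 of 300), 3882 of 6289 for M1 against M2 (2917 of 5873), 3140 of 4589 in progenitors (2373 of 4512) and 4474 of 11186 for progenitors against macrophages (5729 of 11064), where the median over all genes moved from 0.04 to -0.28.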
